A study of Mus musculus with 9 samples.

Results

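The eosinophils described here are 711 of the 16751 cells deposited from the knee joints of 9 mice. A cell was counted as an eosinophil when its counts of Epx, Prg2, Prg3 and Ear1, added up, came to 3 or more and those of the neutrophil primary granule genes Mpo, Elane, Prtn3 and Ctsg to under 5. The members were thus chosen by measured counts of these genes in the same cells. The sum of Epx, Prg2, Prg3 and Ear1 is called the gate count below. The cells came from single-cell RNA sequencing with Seq-Well, in which single cells are caught in small wells with barcoded beads and the polyadenylated RNA is counted from its 3′ end. The sick group held 5 mice, numbered 1, 3, 4, 5 and 6. They had been sensitized to methylated bovine serum albumin and then had an antigen-induced arthritis triggered with it, which the submitters checked by immunohistochemistry. The healthy group held 4 mice, numbered 1 to 4, that were injected with phosphate-buffered saline. Whether the healthy mice were sensitized too is not given in the labels. All mice were female, of strain 129/Sve and 8 weeks old, and the left knee was taken whole 1 week after the injection.

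Eosinophils are granulocytes that mature in the bone marrow, driven above all by interleukin 5, and move into tissues in allergy, parasite infection and repair. Their granules hold the major basic proteins, a peroxidase and a family of ribonucleases, and these are made while the cell is still a precursor, so granule transcripts mark maturing more than mature cells. Epx encodes the eosinophil peroxidase, Prg2 and Prg3 encode major basic protein and its homologue, and Ear1, Ear2 and Ear6 encode eosinophil-associated ribonucleases. Alox15 encodes a lipoxygenase that oxygenates arachidonic acid. In arthritic joints eosinophils have been described as a source of pro-resolving lipids.

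The bases before the start sites of 3 of these genes are shown because the gate rests on Ear1 while Ear2, its near copy, is read here as a gene the gate did not use, and because Prg3 is a gate gene of the other granule family. They are the 250 bases before the start, from RefSeq on GRCm38.p6, each 5′ to 3′ on the gene's own strand. Capitals mark a GATA motif (A or T, then GATA, then A or G) or a motif of the type bound by C/EBP factors (TTGCNNAA), searched on both strands.
Prg3: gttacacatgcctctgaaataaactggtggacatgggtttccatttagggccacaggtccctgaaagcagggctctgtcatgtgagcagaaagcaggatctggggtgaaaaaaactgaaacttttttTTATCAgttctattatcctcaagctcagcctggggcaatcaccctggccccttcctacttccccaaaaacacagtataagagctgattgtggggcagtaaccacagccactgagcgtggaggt
Ear1: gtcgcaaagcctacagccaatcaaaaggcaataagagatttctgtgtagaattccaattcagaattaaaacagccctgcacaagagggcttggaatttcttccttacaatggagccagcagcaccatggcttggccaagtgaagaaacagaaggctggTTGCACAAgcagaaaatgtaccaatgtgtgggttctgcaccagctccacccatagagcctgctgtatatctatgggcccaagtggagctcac
Ear2: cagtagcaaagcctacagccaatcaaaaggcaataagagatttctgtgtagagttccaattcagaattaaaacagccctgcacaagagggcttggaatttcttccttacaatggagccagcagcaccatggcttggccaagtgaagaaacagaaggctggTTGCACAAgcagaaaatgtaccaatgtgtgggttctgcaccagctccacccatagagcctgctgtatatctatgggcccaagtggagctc
The Prg3 window lies at chr2:84987965-84988214 on the plus strand, and its GATA match stands 123 bases before the start. The Ear1 window lies at chr14:43819640-43819889 on the minus strand and the Ear2 window at chr14:44102404-44102653 on the plus strand. Both hold a C/EBP-type match, 92 bases before the start in Ear1 and 90 in Ear2. A GATA match stood in 26.5% and a C/EBP-type match in 9.56% of 32851 promoter windows of the same length. The Ear1 and Ear2 windows were 97.6% identical, and the last 300 bases of their transcripts, where 3′ counts are read, were 98.7% identical. Reads of Ear1 and Ear2 may therefore have been split between them, and their separate values are uncertain. Aligned over the same stretch, Ear6 and Ear1 were 63.4% identical across 352 columns, with gaps counted as differences. The gaps lower this value, so how far Ear6 can be read apart from Ear1 is uncertain too. Of 7 granule and marker genes looked up, 5 had a promoter window, and those of Epx and Ear6 held neither motif. The Ear1 window precedes the start that RefSeq gives, and a longer transcript in the GENCODE M21 annotation begins elsewhere, at base 43875517 of chromosome 14.

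Prg2 carried most of the gate. It gave 11353 counts in the members, which was 85.3% of their gate counts, and it was present in 703 of the 711 cells. Ear1 gave 955 counts in 325 cells, Epx gave 661 counts in 255 cells and Prg3 gave 340 counts in 203 cells. In 231 members Prg2 was the only gate gene with a count. Just inside the threshold, 158 cells had a gate count of 3, and just outside it 417 cells had a gate count of 2 under the same primary granule limit. Another 59 cells had a gate count of 3 or more and were left out by that limit. They were large, with a median of 2656 counts, and healthy mouse 1 held 16 of them.

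The label was checked with genes the gate did not use. As the gate count climbed through 3, 4, 5 to 9, 10 to 29 and 30 or more, Alox15 stood at 43.9, 183, 188, 340.1 and 572 CPM of summed counts (the counts of a gene scaled to the same total of counts in each set of cells). Ear6 stood at 142, 173, 310.2, 483 and 735 CPM, and Vcam1, an adhesion receptor, reached 710.1 CPM in the last class. Healthy mouse 1 held 49 of the 142 cells of that class. Without this mouse Alox15 stood at 35.8, 183, 128, 271 and 435 CPM and Ear6 at 155, 194, 312, 476 and 666. In sick mice alone Alox15 stood at 47.4, 319, 210, 360 and 460 CPM, so its rise was not steady. A count of Alox15, Ear2 or Ear6 was found in 25.3% of the cells with a gate count of 3 and in 84.5% of those with 30 or more, and in 2.27% of cells with a gate count of 0. With each cell thinned to 600 counts, these shares were 16.7%, 72.6% and 1.36%. Counts of Ear2 may include reads of Ear1, a gate gene, so these shares are no independent check of the label. Over all mice, haemoglobin genes took 34.2% of the counts at a gate count of 3 and 6.12% at 30 or more. The 288 members with 10 or more gate counts are therefore also described on their own, beside the 423 members with 3 to 9. This split was chosen after the values were seen. Haemoglobin genes took 2.30% to 8.96% of the counts of the members with 10 or more gate counts in sick mice. In healthy mice 1 to 4 they still took 4.40%, 34.7%, 35.3% and 22.8%.

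**Figure D1:**
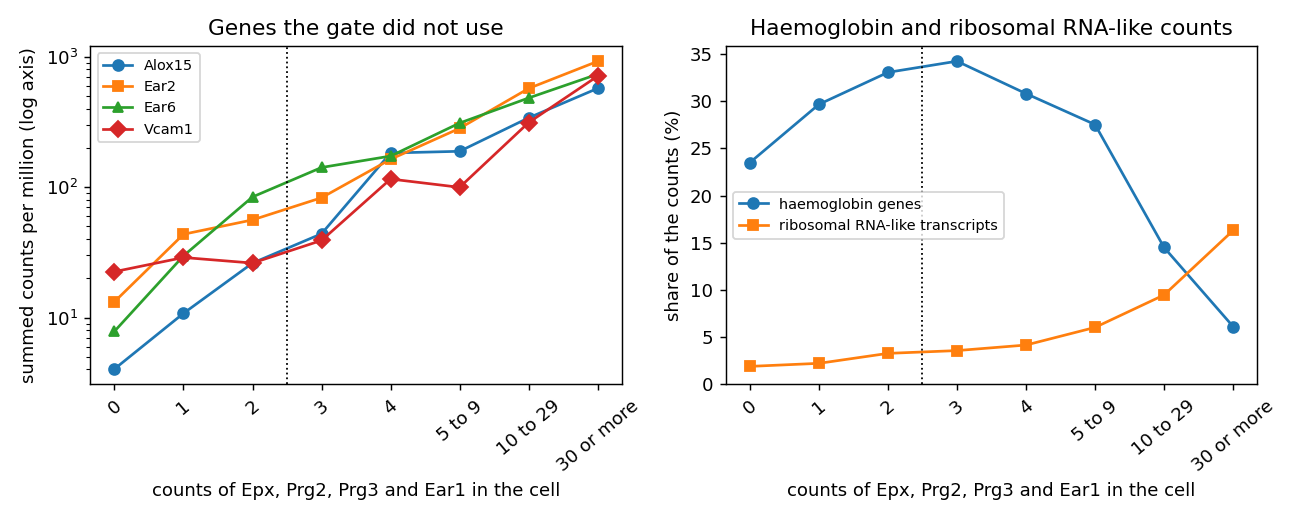
Left, summed CPM (log axis) of Alox15, Ear2, Ear6 and Vcam1 over all mice, by the gate count of the cell; right, the percent of counts in haemoglobin genes and in ribosomal RNA-like transcripts. The dotted line is the lower threshold of 3. Alox15 stood at 572 CPM in cells with 30 or more gate counts (435 without healthy mouse 1), where haemoglobin genes took 6.12% of the counts. Ear2 may include reads of Ear1, a gate gene.

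The surface receptors that define mature eosinophils were nearly absent. Siglecf, a sialic acid-binding lectin, gave 18 counts in all 711 members, Il5ra, the interleukin 5 receptor, gave 8, and Ccr3, the eotaxin receptor, gave 5. Ptgdr2, a prostaglandin D2 receptor, gave 0. The macrophage and eosinophil surface genes Adgre1 and Adgre4 gave 20 and 49 counts. Among the transcription factors of the lineage, Cebpe, needed for granulocyte maturation, gave 90 counts and Gata1 gave 35. In CPM of summed counts, members stood above all other cells for Siglecf (21.4 against 2.47), Il5ra (9.53 against 1.31) and Adgre1 (23.8 against 6.46). The same held for Adgre4 (58.4 against 6.83) and Gata1 (41.7 against 18.3). Ccr3 (5.96 against 11.7) and Cebpe (107 against 112) were not higher in members. The median depth of the members was 893 counts per cell.

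Markers of other cell types were present in the members, and their part in the results below was not tested. A neutrophil gate (3 or more counts of Retnlg, Mmp8, Mmp9, Cxcr2 and Il1r2) was passed by 235 members (33.1%) and by 38.5% of all other cells. Among the members with 10 or more gate counts it was passed by 73 (25.3%). In these members Camp stood at 13132 CPM of summed counts against 9815 in all other cells. Ltf stood at 3605 against 2976 and Ngp at 12146 against 12073. S100a8 was lower, at 22925 against 67112, as were S100a9, Retnlg, Mmp8 and Cxcr2. The summed level of the 16 neutrophil markers in the members was 79725 to 155938 CPM in sick mice and 38416 to 90299 in healthy mice. Haemoglobin counts made up most of the counts in 55 members. The C1q macrophage gate was passed by 1 member, the B lineage gate by 3 and the fibroblast or bone gate by 5. Outside the neutrophil and erythroid lists, the most abundant marker was Srgn (587 counts) of the granulocyte progenitor list, followed by Fcnb (537), Ly6c2 (406) of the monocyte and macrophage list and Ighm (308) of the B lineage list. For basophils and mast cells it was Hdc (74), and for fibroblasts and bone Prg4 (112). Of the 10 basophil and mast cell markers in the file 2 were at 0, as were 2 of 9 for T and NK cells and 1 of 7 for plasmacytoid dendritic cells.

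Free RNA from burst cells can reach cells that do not express a gene, so counts of the gate genes were looked for in cells of the red cell line. Of cells with haemoglobin in most of their counts, 14.8% of 1381 in sick mice (exact 95% binomial interval 12.9 to 16.8) and 37.6% of 764 in healthy mice (34.1 to 41.1) had a count of a gate gene. The median depth of these cells was 1359 counts in sick and 1205 in healthy mice. By mouse the share was 8.41% to 23.4% in sick and 27.7% to 57.3% in healthy mice. A gate count of 3 or more was reached by 0.0724% of these erythroid cells in sick and by 7.07% in healthy mice, and those cells are among the members. The intervals cover counting error only. Of the 16743 barcodes 8 occurred in more than 1 library, and no member shared its barcode with a member of another library.

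Members made up a smaller share of the cells in 4 of the 5 sick mice than in any healthy mouse. They were 2.96%, 2.55%, 3.15%, 1.77% and 3.63% of the cells in sick mice 1, 3, 4, 5 and 6, against 11.3%, 8.32%, 9.86% and 3.52% in healthy mice 1 to 4. These shares stand for 62, 98, 44, 40 and 94 cells in the sick mice and for 119, 73, 138 and 43 cells in the healthy mice. Sick mouse 6 and healthy mouse 4 met in the middle, and the other healthy mice stood well above. The means were 2.81% ± 0.701 (SD, n = 5) in sick and 8.25% ± 3.39 (n = 4) in healthy mice, with an exact permutation p of 0.0317 (two-sided, 126 splits of the 9 mice, smallest p 0.0159). Adjusted over the 5 measures compared per mouse it was 0.0794, so the difference did not pass. The share of all counts of a mouse that lay in members was 2.48% ± 0.822 in sick and 9.17% ± 3.62 in healthy mice, without overlap (exact permutation p = 0.0159, adjusted p = 0.0794). In shares of cells, fewer eosinophils and more of the other cells cannot be told apart.

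Most of that difference lay in the members with few gate counts. Members with 3 to 9 gate counts were 1.40% ± 0.805 of the cells in sick and 5.32% ± 2.38 in healthy mice (exact permutation p = 0.0317, adjusted p = 0.0529). Members with 10 or more were 1.41% ± 0.676 in sick and 2.93% ± 2.85 in healthy mice (exact permutation p = 0.381, adjusted p = 0.476). For the class with 10 or more the values by mouse were 1.58%, 1.43%, 2.43%, 0.750% and 0.848% in sick mice 1, 3, 4, 5 and 6, and 7.14%, 2.05%, 1.71% and 0.818% in healthy mice 1 to 4. Healthy mouse 1 alone held 75 of these 288 cells, and the other healthy mice lay inside the range of the sick mice. Haemoglobin genes took 7.32% to 29.1% of the counts of the members with 3 to 9 gate counts in sick mice, against 26.8% to 42.7% in healthy mice. The part of free RNA in the share was not tested.

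**Figure D2:**
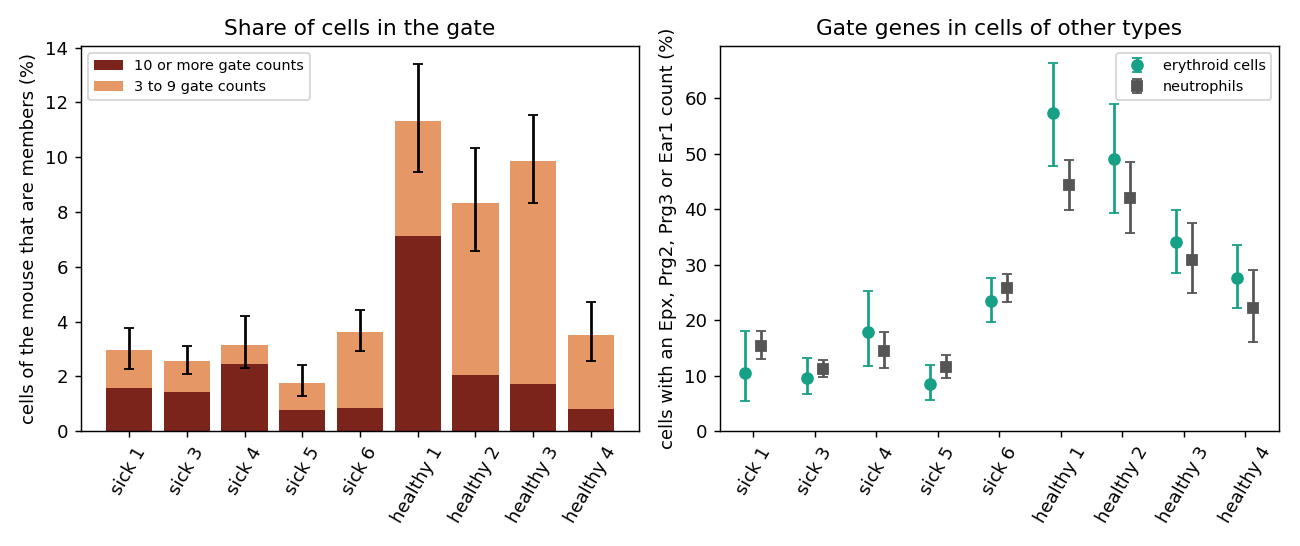
Left, the percent of each mouse's cells that are members, split by gate count, with the exact 95% binomial interval of the total; right, the percent of erythroid and neutrophil gated cells with at least 1 count of a gate gene, with the same interval (both gates include members). Members were 1.77% to 3.63% of the cells in sick mice and 3.52% to 11.3% in healthy mice, and 8.41% to 23.4% of erythroid cells in sick and 27.7% to 57.3% in healthy mice carried a gate gene count.

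Members of sick mice were also shallower, with a median of 793 ± 84.9 counts per cell (SD, n = 5 mice) against 982 ± 102 in healthy mice (n = 4). The exact permutation p was 0.0476 and the adjusted p 0.0794. The median number of genes per cell was 363.5 ± 32.1 in sick and 338 ± 60.8 in healthy mice (exact permutation p = 0.429, adjusted p = 0.429). Mitochondrial counts made up 7.51% ± 2.11 in sick and 9.15% ± 2.37 in healthy mice (exact permutation p = 0.317, adjusted p = 0.397). In sick mice 1, 3, 4, 5 and 6 the members' counts were 6.06%, 6.32%, 7.62%, 14.8% and 24.2% haemoglobin. In healthy mice 1 to 4 they were 13.6%, 38.1%, 41.4% and 34.4% haemoglobin. All other cells of the same mice held 10.2% to 27.6% haemoglobin counts in sick and 17.5% to 38.9% in healthy mice.

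Set against all other cells, the members stood out first in the genes that chose them, which is a description and no test. Over all mice Prg2 reached 13527 CPM of summed counts in members against 185 in other cells, Ear1 1138 against 15.8, Epx 788 against 14.2 and Prg3 405 against 10.2. The next genes by ratio were not part of the gate: Alox15 at 272 against 6.88, Ear6 at 385 against 15.9, Ear2 at 424 against 18.5 and Vcam1 at 272 against 38.4 CPM. Each of these was higher in members than in other cells in 9 of 9 mice. Gm42418, a transcript of ribosomal RNA type, followed at 81718 against 18547 CPM, and in the members with 10 or more gate counts it took 132942 CPM. Csgalnact2, a chondroitin sulphate enzyme, stood at 218 against 62.9 and was higher in 8 of 9 mice. Further genes among the first 20 were Ncf1, a subunit of the NADPH oxidase, Pygl and Tkt, enzymes of glycogen and sugar metabolism, Gadd45a, a stress gene, Ccl6, a chemokine, and the cytoskeletal genes Myl12b and Flna, at ratios of 1.75 to 2.02. Ncf1 and Gadd45a were higher in members in 7 of 9 mice, Pygl, Tkt, Myl12b and Flna in 8 and Ccl6 in 9, and healthy mouse 1 gave 803 CPM of Ccl6 against 109 to 308 in the others. Igha, an immunoglobulin heavy chain, was also among them, but it was higher in members in 2 of 9 mice, and sick mouse 3 gave 1404 CPM of it.

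The granule protein genes Prg2, Epx and Prg3 and the ribonuclease gene Ear1 spread widely between mice of 1 group. All 4 are gate genes, so their level inside the gate is bounded by the rule and is given as a description. In normalised CPM (scaled by the trimmed mean of M values), Prg2 stood at 32668, 27337, 34119, 20019.5 and 30028 in the members with 10 or more gate counts of sick mice 1, 3, 4, 5 and 6. In healthy mice 1 to 4 it stood at 44056, 17303, 17937 and 21302. Epx was at 1776, 2589, 1570.1, 1500.5 and 2179 in sick mice, against 2294, 989, 771 and 1277 in healthy mice. For both genes healthy mouse 1 lay among or above the sick mice and the other healthy mice lay at or below the lowest of them, apart from healthy mouse 4 for Prg2. Prg3 followed the same order, with 599.9 to 917 in sick mice, 969 in healthy mouse 1 and 487 to 580.4 in healthy mice 2 to 4. Ear1 had 1027 to 3166 in sick mice, 3785 in healthy mouse 1 and 771 to 1683 in healthy mice 2 to 4.

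The ribonucleases and the lipoxygenase that the gate did not use were tested. Ear6 in the same cells was at 438, 469, 755, 355 and 599.9 normalised CPM in sick mice, against 1071, 769, 852 and 464 in healthy mice. The groups overlapped, and the log2 difference of -0.90 ± 0.31 (SE) did not pass (edgeR quasi-likelihood test, adjusted p = 0.138). Ear2 had a log2 difference of -0.90 ± 0.32 (edgeR adjusted p = 0.155), with 355 to 747 in sick mice, 1809.7 in healthy mouse 1 and 219.7 to 689.9 in the other healthy mice. Alox15 stood at 386, 285, 604, 316 and 568 in sick mice. It stood at 1045 in healthy mouse 1 and at 109.9, 162 and 174 in healthy mice 2, 3 and 4, below every sick mouse, and its log2 difference was -0.15 ± 0.41 (edgeR adjusted p = 0.943). Vcam1 spread from 347 to 612 in sick and from 219.7 to 987 in healthy mice (log2 difference -0.69 ± 0.36, edgeR adjusted p = 0.411).

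**Figure D3:**
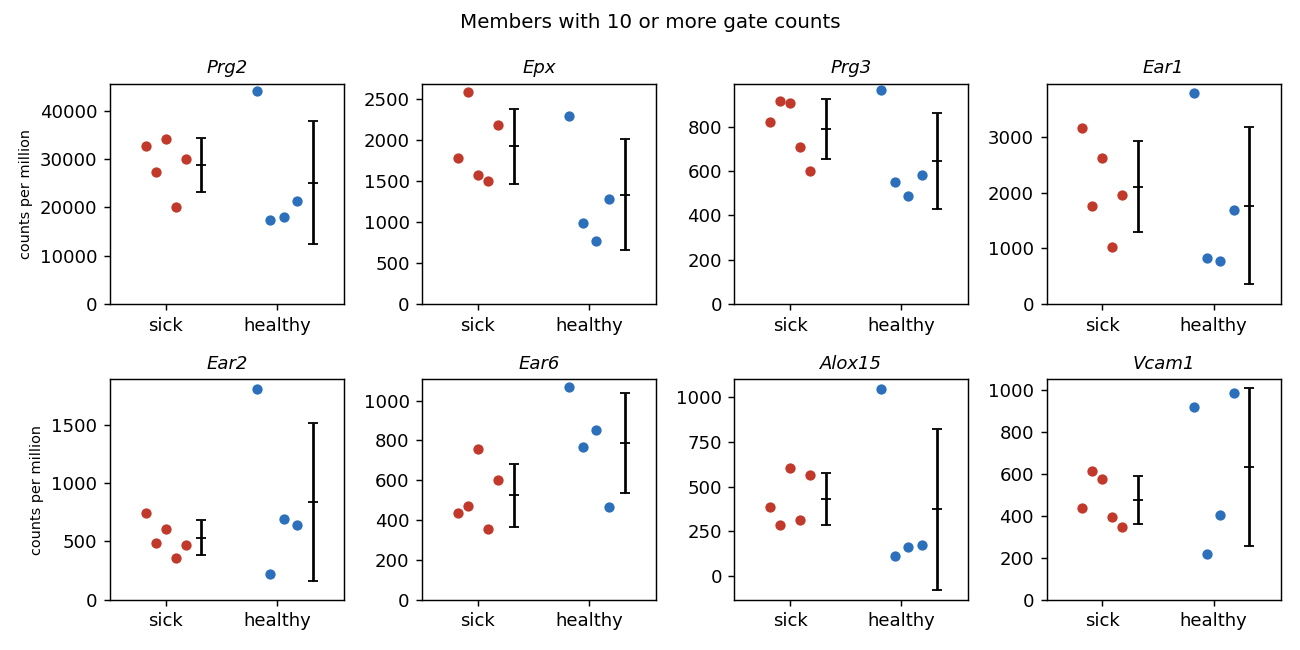
Normalised CPM of 8 eosinophil genes in members with 10 or more gate counts; each point is a mouse, in the order of their numbers, sick mice in red and healthy mice in blue, with the mean and SD beside them. Alox15 stood at 285 to 604 in sick mice, at 1045 in healthy mouse 1 and at 109.9 to 174 in the other healthy mice.

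Over the whole gate, 7 of the 13 eosinophil ribonuclease and granule genes in the file passed the filter on low counts. Epx, Prg2, Prg3 and Ear1 were 4 of the 7, and nothing is read from them since they chose the members. The remaining 3 were not called between sick and healthy mice. Among them, Ear2 may include reads of Ear1, so nothing is read from it either. A call means an adjusted p under 0.05 in edgeR's quasi-likelihood test on the counts summed per mouse. The log2 differences were -0.35 ± 0.34 for Ear2, -0.22 ± 0.28 for Ear6 and -0.09 ± 0.26 for Cd63, a tetraspanin of granule membranes (edgeR adjusted p = 0.641, 0.734 and 0.913). For comparison, 37 of all 907 genes tested were called (4.08%), 7 higher (0.772%) and 30 lower (3.31%) in sick mice. The surface receptors had 9 tested of 38 in the file and none called (1 at an unadjusted p under 0.05, 0 by DESeq2). Fcgr3, a receptor for immunoglobulin G, came nearest, at 154 to 288 normalised CPM in sick mice, 175 in healthy mouse 1 and 42.5 to 59.2 in healthy mice 2 to 4 (log2 difference 1.15 ± 0.37, edgeR adjusted p = 0.0949). Of the lineage transcription factors 7 of 25 were tested and none was called, with 3 at an unadjusted p under 0.05 and 0 by DESeq2. Klf6, a zinc finger factor, had a log2 difference of 0.71 ± 0.25 (edgeR adjusted p = 0.126) and Klf2 of 1.20 ± 0.44 (edgeR adjusted p = 0.149).

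Genes of secretion, oxidant production and lipid mediators were not called in the members either. Of the endoplasmic reticulum folding and secretion genes 12 of 39 were tested and none was called (1 at an unadjusted p under 0.05, 0 by DESeq2). Herpud1, a gene of the unfolded protein response, was at 167 to 362 normalised CPM in sick mice, 192 in healthy mouse 1 and 25.8 to 63.8 in healthy mice 2 to 4 (log2 difference 1.33 ± 0.44, edgeR adjusted p = 0.0978). Of the NADPH oxidase and antioxidant genes 13 of 26 were tested and none was called by edgeR (4 at an unadjusted p under 0.05, 1 lower by DESeq2). Cybb, the membrane subunit of the oxidase, was at 777 to 1763 in sick mice, 1749 in healthy mouse 1 and 335 to 533 in healthy mice 2 to 4 (log2 difference 0.84 ± 0.34, edgeR adjusted p = 0.209). For Fcgr3, Herpud1 and Cybb alike, healthy mouse 1 lay within the sick range and the other 3 healthy mice below it. Of the eicosanoid enzymes 5 of 20 were tested and none was called by edgeR (1 at an unadjusted p under 0.05, 1 lower by DESeq2). Lta4h, which makes leukotriene B4, differed by -0.22 ± 0.35 on the log2 scale (edgeR adjusted p = 0.805).

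Cytokine and chemokine genes were mostly too sparse to test in the members, with 2 of 35 tested and none called (1 at an unadjusted p under 0.05, 0 by DESeq2). Chil3, a chitinase-like protein made by myeloid cells, had a log2 difference of 0.44 ± 0.29 (edgeR adjusted p = 0.472). Ccl6 stood at 174 to 271 normalised CPM in sick mice, at 880.5 in healthy mouse 1 and at 128 to 257 in healthy mice 2 to 4 (log2 difference -0.74 ± 0.34, edgeR adjusted p = 0.287). Il4 gave 12 counts over all 711 members, and Il13, Il10 and Ccl11 gave 0. Of the survival and cytokine signalling genes 3 of 28 were tested and none was called (1 at an unadjusted p under 0.05, 0 by DESeq2), among them Mcl1, an inhibitor of cell death (log2 difference 0.66 ± 0.30, edgeR adjusted p = 0.284). The mature and tissue eosinophil list had 10 of 32 genes tested, all 10 with a difference above 0 and none called (0 at an unadjusted p under 0.05, 0 by DESeq2), and its median difference was 0.42 against 0.03 over all genes tested. That list shares S100a9 and Cxcr2 with the neutrophil markers. The lysosome and cathepsin genes had 8 of 29 tested and none called (2 at an unadjusted p under 0.05, 0 by DESeq2).

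Cycling genes were part of the members' RNA. The cell cycle list took 12100 CPM of summed counts in members with 10 or more gate counts, 8818 in those with 3 to 9 and 9122 in all other cells. At least 2 counts of the list were found in 254 of the 288 members with 10 or more gate counts. Shares of cells with at least 2 such counts were also taken after thinning to 600 counts. They were 85.2% in those members, 85.6% in cells with a gate count of 3 and 69.8% in cells with no gate count. Outside the gate they were 84.6% in B lineage cells and 59.0% in erythroid cells. In neutrophil-gated cells with no gate count the share was 59.4%. Thinning acts on all counts, haemoglobin included, and the part of haemoglobin in these shares was not tested. Among the 288, the 34 cells with under 2 such counts had a median of 613.5 counts, against 1024 in the other 254. Between sick and healthy mice 27 of the 46 genes were tested, 24 had a difference below 0 and none was called by edgeR (5 at an unadjusted p under 0.05, 1 lower by DESeq2). Mki67, the proliferation marker, stood at 1478, 1414, 1183, 998 and 1232 normalised CPM in sick mice, against 1878, 1573, 2281 and 1489 in healthy mice, without overlap. The difference was -0.61 ± 0.23 on the log2 scale (edgeR adjusted p = 0.149). Groups of mice did not overlap for 42 of the 907 genes tested (4.63%). In the members with 10 or more gate counts the 2 groups overlapped for Mki67, and the difference was -0.30 ± 0.29 (edgeR adjusted p = 0.743).

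Of the 7 genes that rose in the members of sick mice (0.772% of the 907 tested), 3 were interferon-stimulated genes and 3 were heat-shock chaperones. Of 63 interferon-stimulated genes in the file 9 were tested, 3 rose (2 by DESeq2) and none fell, and their median log2 difference was 0.86 against 0.03 over all genes tested. The filter on low counts lets a gene in through the group where it is higher, so nothing is read from this median or from that of any other list. Ifi27l2a, an interferon-induced protein of mitochondria, stood at 193, 139.6, 114, 108 and 259 normalised CPM in sick mice 1, 3, 4, 5 and 6, against 46.6, 12.9, 9.87 and 0 in healthy mice 1 to 4. These levels rest on 5 to 29 counts per sick mouse and 0 to 8 per healthy mouse, and the groups did not overlap. Its log2 difference was 2.77 ± 0.50 (edgeR adjusted p = 0.0045). Slfn2, a Schlafen protein of growth control in leukocytes, stood at 244, 227, 209.8, 217 and 249.95 in sick mice and at 117, 12.9, 88.9 and 0 in healthy mice, a log2 difference of 1.74 ± 0.41 (edgeR adjusted p = 0.0157). Ifitm3, which blocks virus entry, stood at 411, 497, 267, 499 and 339 in sick mice and at 198, 77.3, 217 and 106 in healthy mice, a log2 difference of 1.31 ± 0.29 (edgeR adjusted p = 0.013). For each of the 3 every sick mouse lay above every healthy mouse. Slfn4 did not pass, at a log2 difference of 1.34 ± 0.41 (edgeR adjusted p = 0.0701).

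The same 3 genes also rose outside the eosinophils. In all other cells of the same mice Ifi27l2a had a log2 difference of 3.13, Ifitm3 of 1.65 and Slfn2 of 1.06, and all 3 were called there (edgeR adjusted p = 2.32e-05, 0.00334 and 0.0283). The test of the difference between the members' change and that of the other cells gave -0.08 for Ifi27l2a, -0.25 for Ifitm3 and 0.86 for Slfn2 on the log2 scale (edgeR adjusted p = 0.999, 0.989 and 0.822). Of the 57 interferon-stimulated genes tested in the other cells 29 rose, where 0.539% of 10211 genes were called higher and 0.813% in either direction. Ifi27l2a stood at 96.5 CPM of summed counts in the members and at 245 in all other cells, and the part of free RNA in its level was not tested.

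The chaperone genes Hsp90ab1, Hsp90aa1 and Dnaja1 belong to a list of dissociation and immediate-early genes. That list is known to move with the handling of tissue too. Of its genes 16 of 40 were tested, 3 rose (2 by DESeq2) and none fell (median log2 difference 0.71). Of all 907 genes tested 0.772% were called higher. Hsp90ab1 stood at 1233, 2321, 1736, 1258 and 2098 normalised CPM in sick mice, against 1038, 593, 731 and 808 in healthy mice, without overlap (log2 difference 1.04 ± 0.25, edgeR adjusted p = 0.021). Hsp90aa1 differed by 1.29 ± 0.36 (edgeR adjusted p = 0.0487) and Dnaja1, a co-chaperone, by 1.15 ± 0.32 (edgeR adjusted p = 0.0472), and for both the lowest sick mouse, mouse 1, lay below the highest healthy mouse. The seventh gene, Lrg1, a secreted glycoprotein stored in neutrophil granules, was at 95.4 to 244 in sick and 19.7 to 111 in healthy mice (log2 difference 1.62 ± 0.41, edgeR adjusted p = 0.0254). It stands outside the rule for named genes because the groups overlapped, and was chosen after its values were seen. The neutrophil markers had 13 of 16 tested and none called (3 at an unadjusted p under 0.05, 0 by DESeq2), with a median log2 difference of 0.49.

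The 30 genes that were lower in the members of sick mice (3.31% of the 907 tested) were led by globin genes. Of the 5 haemoglobin genes of the list all were tested and 4 fell, with a median log2 difference of -2.24, and of the 10 erythroid markers 5 fell (3 of them haemoglobins). Hbb-bh1, an embryonic beta globin, stood at 527, 332, 858, 1107 and 1892 normalised CPM in sick mice, against 2478, 8701, 5084 and 3935 in healthy mice, and the difference was -2.59 ± 0.46 (edgeR adjusted p = 0.0045). Hba-ps4, an alpha globin pseudogene, had the largest fall, -2.72 ± 0.40 (edgeR adjusted p = 0.00125), with 206 to 616 in sick and 904 to 3313 in healthy mice. Reads of the globin copies may have been split among them. Hbb-bh3 and Hbb-y, globins of the same cluster, fell with log2 differences of -2.62 and -2.25. Genes outside the globins fell too, among them Bpgm, which makes bisphosphoglycerate in red cells: the log2 difference was -1.95 for Fam46c, -1.92 for Xpo7, -1.91 for Bpgm, -1.80 for Fam213a and -1.64 for Tmcc2, each with the lowest healthy mouse above the highest sick mouse (edgeR adjusted p = 0.00581 to 0.0129). Their levels rest on 2 to 13 counts in each sick mouse. Chosen after their values were seen, Alas2 and Fech, enzymes of haem synthesis, differed by -1.65 and -1.45, and Epb41, a gene of the red cell skeleton, by -1.57 (edgeR adjusted p = 0.00581 to 0.0236). In all other cells Hbb-bh1 differed by -1.22 (edgeR adjusted p = 0.194) and Hba-ps4 by -1.65 (edgeR adjusted p = 0.0266). Haemoglobin made up 6.06% to 24.2% of the members' counts in sick and 13.6% to 41.4% in healthy mice, and the part of free RNA in these falls was not tested.

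Mitochondrially encoded and ribosomal RNA-like transcripts were another 7 of the 30 lower genes, which were 3.31% of the 907 tested. Of 10 mitochondrially encoded genes in the list 6 were tested and 5 fell. mt-Nd5, a subunit of complex I, stood at 179.9, 175, 153, 217 and 241.02 normalised CPM in sick mice, against 286, 593, 879 and 915 in healthy mice, a difference of -1.92 ± 0.37 (edgeR adjusted p = 0.00581). Healthy mouse 1 lay nearest to the sick mice. Of the 7 ribosomal RNA-like transcripts 6 were tested and 2 fell, Gm23935 (log2 difference -1.30) and Gm15564 (-1.10). Gm23935 stood at 282 to 419 in sick and 632 to 938 in healthy mice. Both kinds of transcript also fell in the other cells of the sick mice, where 7 of 7 tested mitochondrially encoded genes and 1 of 7 ribosomal RNA-like transcripts were called lower (0.274% of 10211 genes). Gm42418, the most abundant of the second kind, was not called in the members (log2 difference -0.26 ± 0.56, edgeR adjusted p = 0.876).

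**Figure D4:**
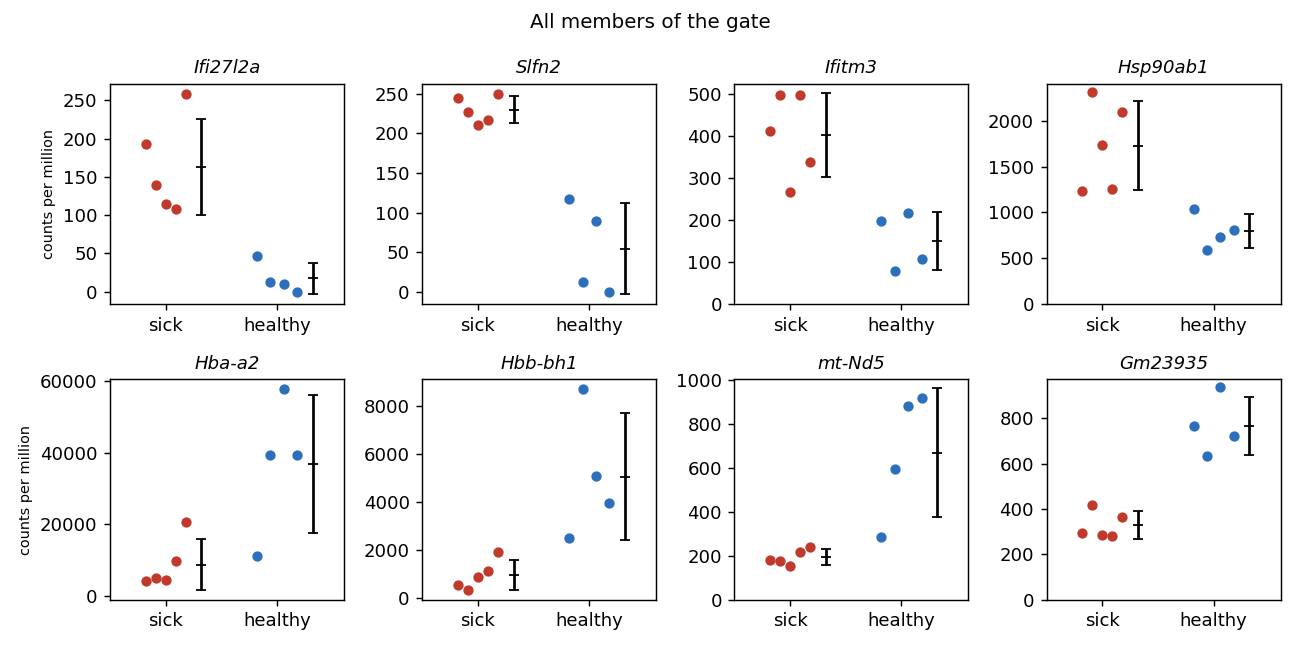
Normalised CPM in all members of 8 genes called between the groups; each point is a mouse, in the order of their numbers, sick mice in red and healthy mice in blue, with the mean and SD beside them. Ifi27l2a stood at 108 to 259 in sick and at 0 to 46.6 in healthy mice, and Hbb-bh1 at 332 to 1892 in sick and at 2478 to 8701 in healthy mice.

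The number of called genes turned on single mice, healthy mouse 1 above all. When healthy mouse 1 was left out, 33 genes were called higher and 59 lower, 35 of the 37 among them, and without any other mouse the counts ran from 2 to 13 higher and from 11 to 48 lower. Of the 37 genes 11 were called whichever mouse was left out, among them Ifi27l2a, Hba-ps4, Hbb-bh1, mt-Nd5 and Gm23935. The call of Slfn2 was lost without sick mouse 5 or healthy mouse 2, that of Ifitm3 without sick mouse 5 or healthy mouse 2 or 4, and that of Hsp90ab1 without sick mouse 3 or 4 or healthy mouse 2 or 3. When healthy mice 2, 3 and 4 were all left out, 1 gene was called higher and 2 lower, and none of the 37 was among them. That fit takes the spread of the remaining healthy mouse from the sick mice.

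In the 288 members with 10 or more gate counts, 213 genes were tested and 7 called (3.29%), 1 higher (0.469%) and 6 lower (2.82%). B2m, the light chain of class I histocompatibility molecules, stood at 824, 1305, 1087, 908 and 979 normalised CPM in sick mice, against 816, 219.7, 203 and 174 in healthy mice. The difference was 1.22 ± 0.30 (edgeR adjusted p = 0.0312), and the call was lost without any 1 of the mice other than healthy mouse 1. The 6 lower genes were Hbb-bh1, Hba-a2, Hbb-bt, Hbb-bs and Hba-a1, and Lars2, a gene that was placed in the list of ribosomal RNA-like transcripts. For Hbb-bh1, at 103 to 634 in sick mice, healthy mouse 1 stood at 369.6 within the sick range and healthy mice 2, 3 and 4 at 6756, 2962 and 1509. No gene was called when sick mouse 1, 4 or 6 or healthy mouse 2 or 3 was left out, and 4 were called higher and 24 lower without healthy mouse 1. Ifi27l2a, Ifitm3 and Slfn2 did not pass the filter on low counts in these cells. Their levels were 31.6 to 204, 94.7 to 591 and 126 to 412 in sick mice, against 0 to 25.5, 54.9 to 203 and 0 to 140.2 in healthy mice.

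The last comparison asked where the change in the members differed from that in other cells of the same mice. Of 6886 genes tested 16 were called (0.232%), 7 with a higher (0.102%) and 9 with a lower (0.131%) difference in the members. The gate genes Epx, Prg2, Prg3 and Ear1 were 4 of the 7, which the rule bears on. Ear6, Alox15 and Gm42418 were the others. All 3 were higher in members with 10 or more gate counts than in those with 3 to 9. The rule therefore also bears on how much of them is left in the other cells. Their values are given as a description. Ear6 was at 295 to 591 normalised CPM in members of sick mice and at 276 to 554 in those of healthy mice. In all other cells it was at 7.14, 4.11, 6.86, 6.54 and 15.5 in sick mice, against 30.1, 66.5, 64.1 and 23.003 in healthy mice. The difference between the changes was 2.35 ± 0.36 on the log2 scale (edgeR adjusted p = 2.32e-07). In the other cells Ear6 fell by 2.62 (edgeR adjusted p = 0.00394), and in the members its difference was -0.22 ± 0.28 (edgeR adjusted p = 0.734). Alox15 gave 2.15 ± 0.49 (edgeR adjusted p = 0.00672), with 2.29 to 6.69 in other cells of sick and 5.75 to 19.4 in those of healthy mice. Gm42418 gave 1.48 ± 0.31 (edgeR adjusted p = 0.00228), with 8665 to 16083 in other cells of sick and 14374 to 73506 in those of healthy mice.

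**Figure D5:**
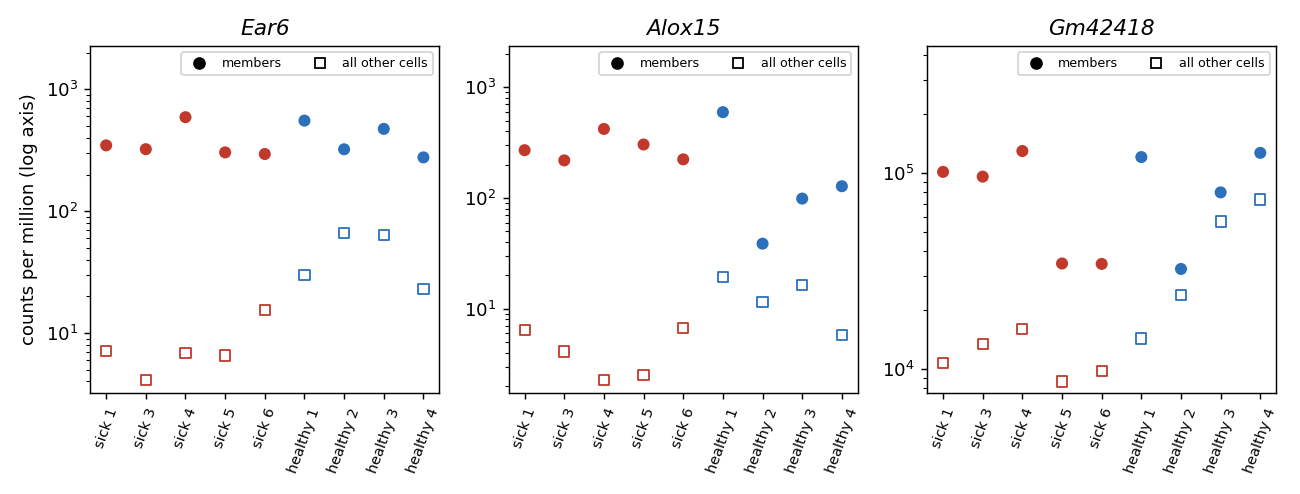
Normalised CPM (log axis) of Ear6, Alox15 and Gm42418 in members (filled circles) and in all other cells (open squares) of each mouse, sick in red and healthy in blue. In other cells Ear6 stood at 4.11 to 15.5 in sick mice and at 23.003 to 66.5 in healthy mice, and in members at 295 to 591 in sick and 276 to 554 in healthy mice.

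The 9 genes with the lower difference were 4 globins (Hbb-bh3, Hbb-y, Hbb-bh1 and Hbb-bt), 3 immunoglobulin genes, the histone gene H3f3a and the ubiquitin gene Ubb. H3f3a stood at 76.3 to 241.02 normalised CPM in members of sick mice and 234 to 541 in members of healthy mice, while other cells held 304 to 567 in sick and 323 to 464 in healthy mice. The difference between the changes was -1.46 ± 0.35 (edgeR adjusted p = 0.0129). Ubb gave -1.24 ± 0.31 (edgeR adjusted p = 0.0318). Igkv8-30 rested on 1 mouse: all but healthy mouse 1, at 443, were at 0 in the members. With the 288 members that had 10 or more gate counts, 3 genes had a higher difference (Gm42418, Prg2 and Epx) and none a lower one.

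Against neutrophils alone, the other granulocyte, the members' change differed in 2 of 2611 genes (0.0766%), Hbb-bh3 (-1.64, edgeR adjusted p = 0.0139) and Ighg2c (-6.52, edgeR adjusted p = 0.0115). None had a higher difference in the members by edgeR, with 104 at an unadjusted p under 0.05 and 1 by DESeq2. The neutrophils here were 5163 cells with 3 or more counts of the neutrophil gate genes and no gate count. Ear6 gave 1.94 and Alox15 2.17 on the log2 scale in this test, and neither passed (edgeR adjusted p = 0.271 and 0.363). Both were higher in cells with more gate counts, so choosing neutrophils without a gate count bears on these values. They are given as a description.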

How the data were processed

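Single-cell RNA sequencing of 9 knee joints was deposited by the authors as 1 table of raw counts for 24296 genes and 16751 cells. Reads were extracted with bcl2fastq and Picard by the Drop-seq protocol and mapped with STAR, and sequencing rounds of a sample were merged, per the labels' protocols. The protocol names GRCh38 and the submitters' processing notes name GRCm38 and mm9, so the build is not settled, and no coordinate was read from the counts. The filter on cells and the treatment of doublets are not given in the sources used here, and no doublet caller was run. A mouse had 1589079 to 4675909 counts in the sick and 897477 to 1514252 in the healthy group, of which 35591 to 112830 and 55082 to 188108 lay in members.

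Counts of the members were summed per mouse (at least 10 cells) and tested with edgeR 4.0.16 in R 4.3.3, with its own filter on low counts, scaling by the trimmed mean of M values, the quasi-likelihood test and Benjamini-Hochberg adjustment over all genes tested, called under 0.05. Differences between cell types were tested as an interaction with the mouse as a term. Measures per mouse were compared by exact two-sided permutation in scipy 1.17.1, adjusted over 5 measures. The sick against healthy fits of all members and of those with 10 or more gate counts were tried on simulated counts. The interaction fits were not. With 200 of 907 genes changed in all members, 50% of the 2-fold and 76% of the 4-fold changes were called, with 8 false calls. With 10 or more gate counts these were 60% and 87% with 1 false call, but 200 of only 213 genes were changed there. DESeq2 1.42.0, other gates, filters and scalings, and fits without single mice were the alternatives. The members and gene lists were chosen with earlier results of these data known. Named genes were the gate and marker genes, the 10 largest rises and 10 largest falls called without overlap of the groups at a mean of at least 100 CPM, up to 4 genes of each list with the smallest p, and the 20 genes with at least 200 CPM and the largest ratio of members over other cells. No batch of libraries is named in the labels, and p-values measure the spread between these mice.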

Additional observations from a re-analysis of the deposited data

Results flagged for a closer look

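Of 116 groups of mice examined for a value far from the others, 9 held one, and chance gives about 1 in 20. Healthy mouse 1 stood apart in 4 of them. Its members had a median of 429 genes per cell, its members with 10 or more gate counts held 7.31% of its counts, and in its members Prg3 stood at 466 and Alox15 at 595 normalised CPM. Healthy mouse 3 stood apart with Fam46c at 385 and Tmcc2 at 444 normalised CPM. Sick mouse 6 stood apart with Hba-ps4 at 616 and Hbb-y at 955, and sick mouse 4 with Ear6 at 591.

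The change between sick and healthy mice differed between the members and all other cells in genes outside the gate. Of these, Ear6, Alox15 and Gm42418 were higher in cells with more gate counts, so the choice of members bears on them too. On the log2 scale the difference was 2.35 for Ear6, 2.15 for Alox15 and 1.48 for Gm42418. It was -1.53 for Hbb-bh3, -1.33 for Hbb-y, -1.25 for Hbb-bh1 and -1.14 for Hbb-bt among the globins, -1.46 for H3f3a and -1.24 for Ubb. Among the immunoglobulin genes it was -8.91 for Igkv8-30, -4.23 for Ighg2c and -3.68 for Igkj2, which rest on 76, 16 and 38 counts in all members. Against neutrophils the difference was -1.64 for Hbb-bh3 and -6.52 for Ighg2c.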

How the results depend on the processing

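The share of cells that are members stayed lower in sick mice under every alternative run. The difference was -2.82 percentage points with 5 or more gate counts and -3.53 with cells thinned to 600 counts. With no primary granule limit it was -5.79 and without Ear1 in the gate -4.91. None of these passed (exact permutation, adjusted p = 0.132, 0.159, 0.119 and 0.0794). With 10 or more gate counts it was -1.52, and -0.12 when healthy mouse 1 was also left out (exact permutation, adjusted p = 0.476 and 0.857). The difference was -9.52 percentage points with 2 or more gate counts, -4.79 with under 2 primary granule counts and -6.53 among cells with at least 400 genes, and these 3 passed (exact permutation, adjusted p = 0.0397, 0.0397 and 0.0265). Without single mice it ran from -7.03 to -4.42, the share of counts from -8.39 to -5.61, the median counts from -237 to -162, the median genes from 12.5 to 55.5 and the mitochondrial percent from -2.52 to -0.49. Genes called higher in the members numbered 13 with no filter on low counts, 3 with haemoglobin, mitochondrial and ribosomal RNA-like genes left out, 2 each without members of mixed kind and with totals thinned to the smallest, and 1 each with 5 or more gate counts, with 10 or more and without healthy mice 2, 3 and 4. Genes called lower numbered 12, 6 and 2 under the last 3 of these, 13 with thinned totals, 15 without those 3 kinds of gene and 16 without members of mixed kind. Without single mice the calls ran from 2 to 33 higher and from 11 to 59 lower. The share of calls that were lower was 81.1% and became 65.8% with no filter. Without healthy mice 2, 3 and 4 the log2 differences of mt-Nd2, mt-Co1 and mt-Cytb turned to 0.10, 0.037 and 0.19. Of 767 other values of single called genes, 510 stayed called, 254 did not and 3 turned.

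For members with 10 or more gate counts DESeq2 called 2 higher and 13 lower. No gene was called higher with no filter or without members of mixed kind, and 0 were called in either direction with at least 20 cells per mouse and without healthy mice 2 and 3. Without single mice the calls ran from 0 to 4 higher and from 0 to 24 lower. Against all other cells these members gave 3 higher and 0 lower, and all members gave 14 lower with no filter. Without single mice that comparison gave 3 to 10 higher and 3 to 39 lower. Against neutrophils DESeq2 called 1 higher and 10 lower, members with 10 or more gate counts gave 1 and 5, and without single mice the calls ran from 0 to 8 and from 0 to 30.

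The labels do not say that replicate numbers pair the mice. The deviations of same-numbered mice correlated at 0.13, -0.17 and 0.01, and those of differently numbered mice at -0.49 to 0.34. With only 3 same-numbered pairs, these values cannot decide whether the numbers pair the mice. With the number as a block, 0 genes were called higher and 24 lower in all members, and 0 in either direction in members with 10 or more gate counts. The share then differed by -5.35 percentage points (exact permutation over 3 pairs, p = 0.25, the smallest this test can give, so it could not pass). The cause of these changes was not tested. The gates with 10 or more and 3 to 9 counts and the fits without several healthy mice were chosen after seeing the data. Depth limits what could be tested: 9 of 38 surface receptors and 2 of 35 cytokine and chemokine genes passed the filter on low counts.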
